A study of Mus musculus with 9 samples.

Results

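Eye tissue of mice labelled as having choroidal neovascularization (CNV) was compared with eye tissue of untreated mice, gene family by gene family and biotype by biotype. CNV is the growth of new vessels from the choroid, the vascular layer behind the retina, and it is what marks age-related macular degeneration as wet. The comparison rests on 6 of the 9 libraries of the series: 3 titled wet-AMD, from animals labelled CNV mice, and 3 from animals labelled untreated mice. They were chosen by their labels, with no measured value used. Both groups are C57BL/6 mice, and the tissue is given as flat mounts of choroid and retina. Age, sex, the way CNV was produced and the time of sampling are not stated in the labels used here. The remaining 3 libraries, titled Betp-Gel@Ran and taken 3 months after a BetP-Gel was injected into the vitreous, entered the fit only to help estimate the spread. Libraries are numbered within their group as in their titles. Whether the libraries within a group are different animals is not stated, and the p-values therefore reflect only how far these samples spread, a spread that could be technical.

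The mouse eye brings together tissues with very different transcripts. Photoreceptors and retinal neurons carry channels and synaptic proteins, the pigment epithelium serves the photoreceptors, fibroblasts of sclera and cornea lay down collagen bound by small proteoglycans, and the ocular muscles contract with their own myosins. New vessel growth in the choroid is known to draw in myeloid cells, which carry families of surface receptors that bind sugars, sialic acid, antibody or nucleotides. Grouping genes by family sets protein machines and signalling systems side by side, though a family can hold members of several cell types. Membership followed the gene symbol and not the level. The families themselves were chosen with earlier results of these data known.

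Expression was measured as FPKM, a count of fragments corrected for depth and transcript length, which is a level per length and can be set side by side for different genes. Differences are CNV minus untreated on the log2(FPKM + 1) scale from limma, so 1 is a doubling and the change of weakly expressed genes is understated. A gene counts as risen or fallen at a Benjamini-Hochberg adjusted p under 0.05 over all tested genes. Of 54532 genes in the table, 26322 were at 0 in all 6 libraries and 13658 reached 1 FPKM in at least 3 of them and were tested. Among the tested genes, 637 passed the filter through 1 group alone and so had to differ in level (376 through CNV and 261 through untreated). Just outside that filter lay 347 genes whose third-highest value was between 0.9 and 1 FPKM, and just inside it 275 genes between 1 and 1.1 FPKM. The 6 libraries held 17055610 to 18753737 reads on genes.

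About as many genes rose as fell in the CNV libraries: 3132 rose (22.9% of tested genes) and 3105 fell (22.7%), so 45.7% were called. With library-total scaling (FPKM rescaled to the reads on genes in each library) in place of the deposited scaling, 3928 rose and 2399 fell, and the median of all tested genes moved from 0.00 to 0.08. Changes of at least 1 on the log2 scale were met by 539 rising genes (3.95%) and 599 falling genes (4.39%). In 7526 genes (55.1%) the 3 CNV values lay wholly above or wholly below the 3 untreated values. The median difference over all tested genes was 0.00, with quartiles of -0.27 and 0.27, and every family median below is to be read against it. The first principal component of the 6 libraries held 78.7% of the variance and separated the groups, and the second held 7.53% and set the third untreated library apart from the other 5. Since the tissue is a bulk sample, fewer cells of a type and less RNA per cell cannot be told apart.

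The labelled tissue was checked against defining markers. Pigment epithelium and photoreceptor markers were present, with the 6 tested pigment epithelium markers summing to 700.2 to 963 FPKM in untreated and 752 to 1133 FPKM in CNV libraries, and none of the 6 called. Markers of other ocular tissues were present too, among them tissues that the label does not name. The 6 corneal epithelium markers summed to 16108 to 19018 FPKM in untreated libraries, 10 skeletal muscle markers to 4984 to 5442 FPKM and 7 rod markers to 1565 to 2165 FPKM. The corneal and muscle sums were thus above the rod sum in every untreated library, and how much cornea, lens and muscle each library held was not tested. Markers of T and NK cells were below the filter in all cases.

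**Figure D1:**
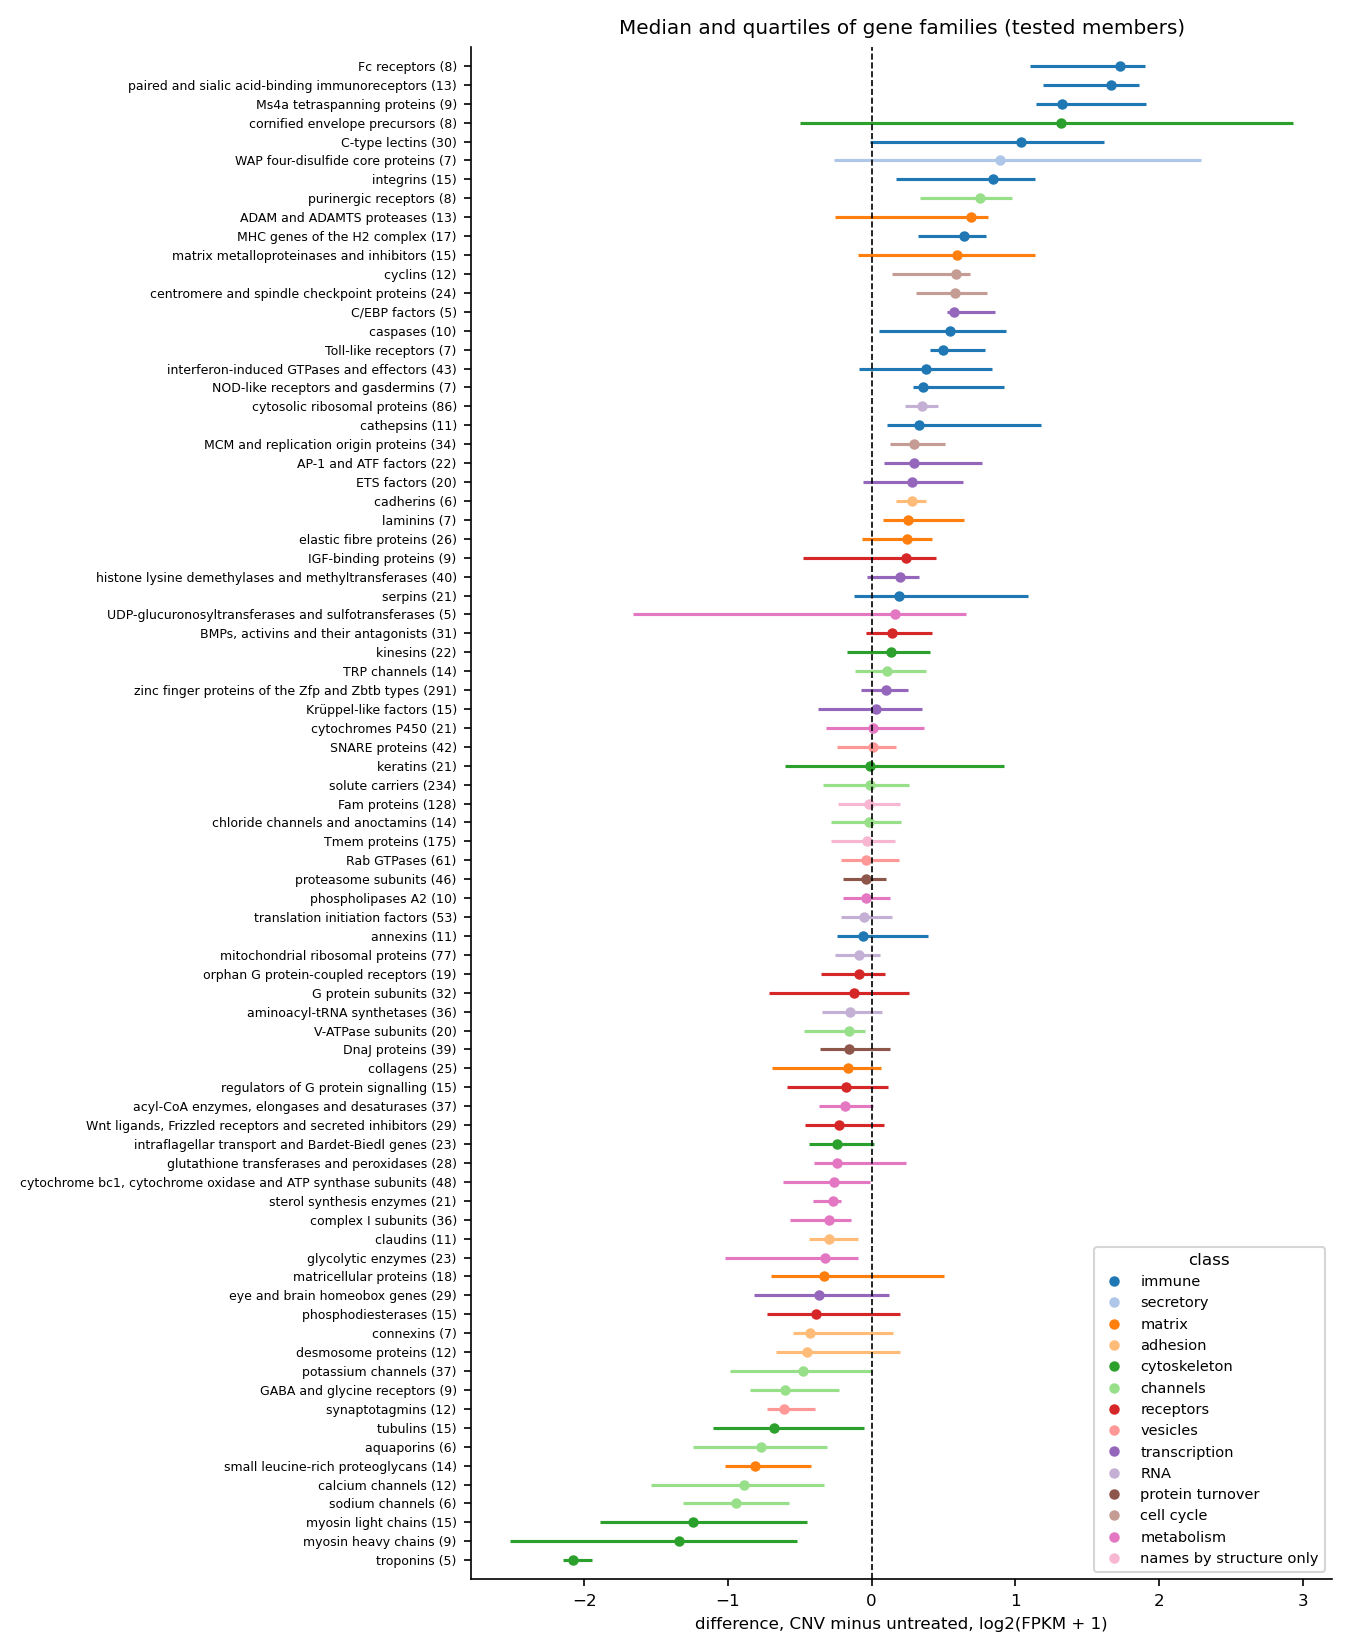
Median difference of each gene family, CNV minus untreated, on the log2(FPKM + 1) scale. Each point is the median over the tested members of a family described in the text with at least 5 of them (crystallins left out), the line spans the quartiles of its members, the colour gives the class of family, and the dashed line is the median of all tested genes. Immune receptor families lie to the right (median 1.67 for paired and sialic acid-binding receptors), and contractile, proteoglycan and channel families to the left (median -0.81 for small leucine-rich proteoglycans).

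A survey of 141 families defined by gene symbol gave 130 with at least 5 tested members. The median difference was above 0.2 in 39 of them, below -0.2 in 26 and between these bounds in 65. Calls in both directions were found in 101 families, and 0 families were without a call. In 16 families with at least 3 calls all calls were rises, among them the chemokine receptors, the paired immunoreceptors, the Toll-like receptors, the genes of the H2 complex, the C/EBP factors and the cyclins. Of the 9 tested chemokine receptors, 5 had passed the filter through 1 group only and so had to differ. In 8 families all calls were falls: the small leucine-rich proteoglycans, claudins, myosin light chains, troponins, voltage-gated calcium channels, synaptotagmins and both families of respiratory chain subunits. The families together held 3643 tested genes, of which 961 rose and 865 fell and 211 had passed the filter through 1 group, and 10015 tested genes lay outside them.

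Receptors by which myeloid cells sense their surroundings mostly rose. The paired and sialic acid-binding immunoreceptors, a group of Cd300, Siglec, Sirp, Trem, Pira and Pirb molecules that pass activating or inhibiting signals, rose in 13 of 13 tested members, against 22.9% of all tested genes, with a median of 1.67. The table held 38 such genes, and 9 of the tested ones had passed the filter through 1 group only and so had to differ. Cd300c2, an activating receptor of myeloid cells, was at 2.5, 1.59 and 1.51 FPKM in the untreated libraries and 12.9, 17.7 and 11.4 FPKM in the CNV libraries. The groups did not overlap, and the difference was 2.39 (SE 0.18, adjusted p = 1.91e-05). Trem2, a lipid-sensing receptor that signals for phagocytosis, was at 1.43, 1.13 and 1.11 FPKM untreated and 6.19, 11.6 and 7.0 FPKM with CNV, a difference of 2.02 (adjusted p = 4.36e-05), and the second CNV library was the highest for both genes. Sirpa, which binds the CD47 signal that restrains phagocytosis, was the most abundant member and rose by 0.64.

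The tetraspanning Ms4a proteins rose in 7 of 9 tested members out of 19, 3 of them tested through 1 group, and fell in 1. Ms4a6d, a macrophage member, was at 3.19, 4.02 and 3.89 FPKM in untreated and 30.5, 39.8 and 17.5 FPKM in CNV libraries. All 3 CNV values were above all untreated values, with a difference of 2.62 (SE 0.28, adjusted p = 0.00015). Ms4a4c rose by 2.54 and Ms4a7 by 1.91, while Ms4a10 fell (difference -0.73).

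Receptors for the constant part of antibodies moved in the same manner. Of 8 tested Fc receptor genes (1 through 1 group) 7 were higher and 1 was lower. Fcer1g, the signalling chain shared by activating Fc receptors, was at 12.5, 11.5 and 19.6 FPKM in untreated and 58.1, 86.7 and 48.3 FPKM in CNV libraries, with no overlap (difference 2.07, adjusted p = 0.000144). The high-affinity receptor Fcgr1 rose by 1.98 and Fcgr4 by 1.88. Fcgrt, the receptor that recycles antibody out of endosomes, was the one that fell (-0.36).

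C-type lectins, named for calcium-dependent binding of sugars, went both ways. Of 68 genes, 30 were tested (10 through 1 group), 21 rose and 4 fell, with a median of 1.04. Clec7a, the receptor for fungal beta-glucan also called dectin-1, was at 1.38, 1.88 and 1.34 FPKM untreated and 14, 20.1 and 14.2 FPKM with CNV (difference 2.75, adjusted p = 1.12e-05), and Clec4n (dectin-2) rose by 2.42. Clec2l, a member known from neurons, went the other way, from 22.5, 20.5 and 15.4 FPKM in untreated libraries to 4.38, 3.23 and 4.36 FPKM in CNV libraries, a difference of -2.03 (adjusted p = 1.72e-05). The 3 CNV values of Clec2l lay below all untreated ones. Clec3a and Clec11a, secreted members of matrix and bone, also fell (-1.53 and -1.33).

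**Figure D2:**
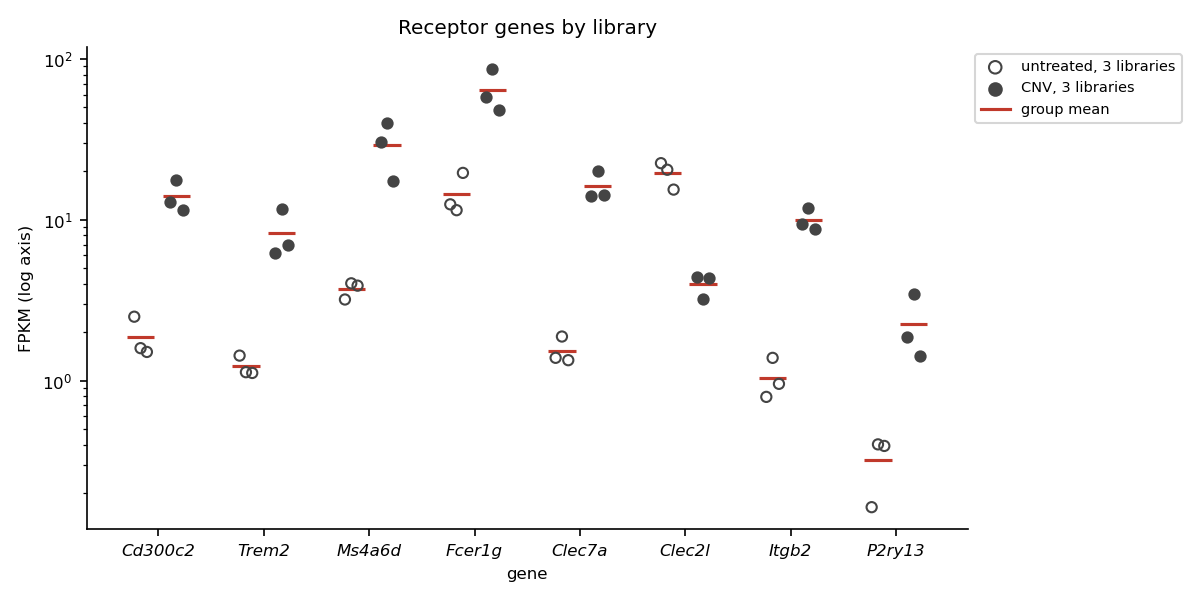
FPKM of 8 receptor genes in each of the 6 libraries, on a log axis, with open circles for untreated and filled circles for CNV libraries and a bar at each group's mean. Of the genes plotted, 7 sit higher in all 3 CNV libraries than in any untreated library, and Clec2l sits lower.

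A chain of leukocytes had the largest rise among the integrins, the paired-chain receptors that tie cells to matrix and to each other. Of 15 tested integrin chains (2 through 1 group) out of 26, 8 rose and 1 fell. Itgb2, the beta chain shared by leukocyte integrins, was at 0.791, 1.38 and 0.954 FPKM in untreated libraries and 9.38, 11.9 and 8.75 FPKM in CNV libraries, with a difference of 2.43 (SE 0.17, adjusted p = 1.16e-05). The groups stood wide apart. Itga3, a laminin receptor chain, rose by 1.15 and Itgb8, which releases active TGF-beta, by 1.18. Itgb7, a chain of gut-homing lymphocytes, fell (-0.84), and Itgb1, the common beta chain, was the most abundant and rose by 0.85.

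Nucleotide receptors rose in most cases. 6 of 8 tested purinergic receptors (2 through 1 group) were higher and 1 was lower. The table held 19, and the median was 0.76. P2ry13, an ADP receptor of myeloid cells, rose by 1.26, the UDP receptor P2ry6 by 1.21 and the ATP-gated channel P2rx4 by 0.90 (adjusted p = 0.00153, 7.77e-05 and 0.000102). The member that fell was Adora1, an inhibitory adenosine receptor of neurons (-0.47). Among orphan and adhesion G protein-coupled receptors, the macrophage genes Gpr34 and Adgre1 rose by 1.80 and 1.75, while the orphan receptors as a group had 4 rises and 5 falls in 19 tested genes.

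Sensors of microbial and damage signals rose with smaller medians than the surface receptors (0.50 for Toll-like receptors, 0.36 for NOD-like receptors and gasdermins). Of 7 tested Toll-like receptors (2 through 1 group) 6 rose and 0 fell. They were led by Tlr13 (1.80) and Tlr7 (0.90), both sensors of RNA in endosomes. Among NOD-like receptors and gasdermins 6 of 7 tested genes (2 through 1 group) rose. Naip1, a sensor of bacterial needle proteins, had a difference of 1.18. Caspases had 7 rises and 1 fall in 10 tested genes (1 through 1 group). The inflammatory Casp4 and Casp1 rose by 1.34 and 1.12, whereas Casp14, the caspase of cornifying epithelium, fell (-0.91).

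Genes induced by interferon did not move as a block. Of 64 genes 43 were tested (3 through 1 group), 23 rose and 5 fell, with a median of 0.38. Ifitm3, which blocks entry of viruses through endosomes, was at 166, 163 and 177 FPKM in the untreated and 554, 511 and 406 FPKM in the CNV libraries (difference 1.52, adjusted p = 2.64e-05). In contrast, the RNA-sensing synthetase Oas2 was at 9.6, 8.17 and 8.82 FPKM untreated and 3.22, 2.38 and 4.17 FPKM with CNV, a difference of -1.23 (adjusted p = 0.000646), and Oas3 fell with it (-0.98). Neither Ifitm3 nor Oas2 overlapped between the groups. The number of falls was the less stable count (2 without library untreated 1, untreated 3 or CNV 1 and 3 without library untreated 2 or CNV 2). Antigen-presenting genes of the H2 complex rose in 12 of 17 tested members (1 through 1 group) and fell in 0. The most abundant of them, H2-D1, a classical class I heavy chain, rose from 247, 235 and 224 FPKM to 330.3, 316 and 317 FPKM (0.45), and the nonclassical H2-M3 rose by 1.14.

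Most tested markers of neutrophils and of monocytes and macrophages rose as well. All 7 tested neutrophil markers of a list of 12 rose, 3 of them having passed the filter through the CNV group only and so bound to differ. The 12 summed to 26.9 to 42.1 FPKM in untreated and 332 to 795 FPKM in CNV libraries, although the granule gene Mpo was at 0 throughout. The other untested markers of the list were below the filter. Of 9 tested monocyte and macrophage markers (1 through 1 group) 8 rose, and the 10 of the list summed to 239 to 267 FPKM and 1019 to 1472 FPKM. Of 4 tested microglia markers (1 through 1 group) 2 rose, and the 6 of the list summed to 49.6 to 54.5 FPKM and 47.5 to 59.1 FPKM. A few highly expressed markers made up most of each of these sums. Fcgr1 and Adgre1 are on the macrophage list and also among the receptor genes above, so the list is not separate from those families. The part of these markers in the receptor results was not tested.

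Among proteases and their inhibitors rises outnumbered falls. Among matrix metalloproteinases and their TIMP inhibitors 9 of 15 tested genes (3 through 1 group) rose and 2 fell. The falls were 1 without library untreated 3 or CNV 1, and the table held 27 genes. Timp1, the secreted inhibitor, was at 5.64, 5.77 and 7.05 FPKM in untreated and 57.3, 69.2 and 29.8 FPKM in CNV libraries, a difference of 2.82 (SE 0.29, adjusted p = 0.000116). The third CNV library was the lowest of its group for Timp1 and still above all untreated values. Mmp12, the macrophage elastase, rose by 2.08 and Adam8, a leukocyte membrane protease, by 2.87. ADAM and ADAMTS proteases had 8 rises and 4 falls in 13 tested genes (2 through 1 group). The falls were 1 without library untreated 1 and 2 without library untreated 2 or CNV 1.

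WAP domain proteins, small secreted antiproteases, had 4 rises and 1 fall (2 without library CNV 3) in 7 tested genes of 19. Of the 7, 1 had passed the filter through 1 group. Wfdc17, a macrophage gene, was at 20.7, 21.6 and 24.3 FPKM in untreated and 233, 325 and 167 FPKM in CNV libraries, and the difference was 3.34 (SE 0.20, adjusted p = 6.80e-06). Wfdc2, secreted by epithelia, was at 60, 90.8 and 89.2 FPKM and 388, 505 and 396 FPKM, a difference of 2.42 (adjusted p = 0.000233). Neither gene's groups overlapped, while Wfdc1 fell (-1.11). Serpins, a family of mostly protease inhibitors, had 7 rises and 3 falls in 21 tested genes. Serpinf1, which encodes the antiangiogenic factor PEDF, was at 269.5, 209.6 and 273 FPKM in untreated and 70.8, 54.7 and 92.3 FPKM in CNV libraries (-1.80, adjusted p = 9.14e-05). The lysosomal cathepsins rose in 6 and fell in 2 of 11 tested genes, with Ctss, which cuts the invariant chain, up by 2.42 and Ctsf down (-1.34).

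The proteoglycans that space collagen fibrils fell together. Small leucine-rich proteoglycans bind collagen and set fibril diameter, which keeps the cornea clear and the sclera strong. Of 16 genes 14 were tested, 0 of them through 1 group only, and 11 fell (78.6%, against 22.7% of all tested genes) while 0 rose, with a median of -0.81. Kera, the corneal keratan sulphate proteoglycan keratocan, was at 47.1, 40.3 and 64.3 FPKM in untreated libraries and 3.14, 3.1 and 7.46 FPKM in CNV libraries. That is a difference of -3.27 (SE 0.31, adjusted p = 7.89e-05) with no overlap. Fmod, fibromodulin of tendon and sclera, was at 122, 89.6 and 124 FPKM and 25.7, 24.8 and 33.1 FPKM (-1.96, adjusted p = 5.43e-05), and Chad, chondroadherin of cartilage, was at 32.4, 25.7 and 32.6 FPKM and 5.47, 5.22 and 5.46 FPKM (-2.28, adjusted p = 8.51e-06). Dcn, decorin, the most abundant member, was lower in each CNV library than in any untreated one, at 538, 469 and 567 FPKM untreated and 260.4, 218 and 324 FPKM with CNV (-0.98, adjusted p = 0.0013).

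Type I collagen chains fell with them, but collagens as a family did not move one way. 8 of 25 tested collagen chains fell and 3 rose (1 without library untreated 1, untreated 2 or CNV 2), with a median of -0.16. Col1a1, a chain of type I collagen, was at 133, 114 and 120.2 FPKM in untreated and 48.9, 26.6 and 27.3 FPKM in CNV libraries (-1.86, adjusted p = 0.000155), and its partner Col1a2 fell alike (-1.74). Col18a1 of basement membranes, the source of endostatin, rose by 1.08. Laminins, also of basement membranes, had 3 rises and 0 falls in 7 tested chains.

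Matricellular proteins, which sit in matrix but act on cells, split into a falling and a rising arm, with 7 falls and 5 rises in 18 tested genes. Sparc, a collagen-binding protein of connective tissue, was at 1238, 1030.2 and 1389 FPKM in untreated and 287, 228 and 245 FPKM in CNV libraries, a difference of -2.26 (SE 0.13, adjusted p = 6.44e-06). Thbs1, the antiangiogenic thrombospondin 1 of platelets and wounds, moved the other way, from 7.49, 7.55 and 7.55 FPKM to 49.1, 67.4 and 34 FPKM (2.53, adjusted p = 0.00012). Thbs4 of tendon and muscle fell (-1.34) and the wound matrix gene Tnc rose by 1.17. The elastic fibre proteins rose more often than they fell (10 against 5 of 26), yet Mfap4, which organises such fibres, fell from 106, 98.1 and 126 FPKM to 30.7, 23.2 and 32 FPKM (-1.91, adjusted p = 2.64e-05). Of 6 tested fibroblast markers 4 fell, and the 6 summed to 908 to 1054 FPKM in untreated and 437 to 588 FPKM in CNV libraries. The fallers are themselves collagen and proteoglycan genes, among them Col1a1, Col1a2 and Dcn, so they are not separate from the families above. The other 2 markers were not called. The part of fibroblasts in the matrix results was not tested. Of 5 tested endothelial markers 1 fell and 0 rose, and the 6 of the list summed to 10.7 to 11.9 FPKM untreated and 9.53 to 11 FPKM with CNV.

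**Figure D3:**
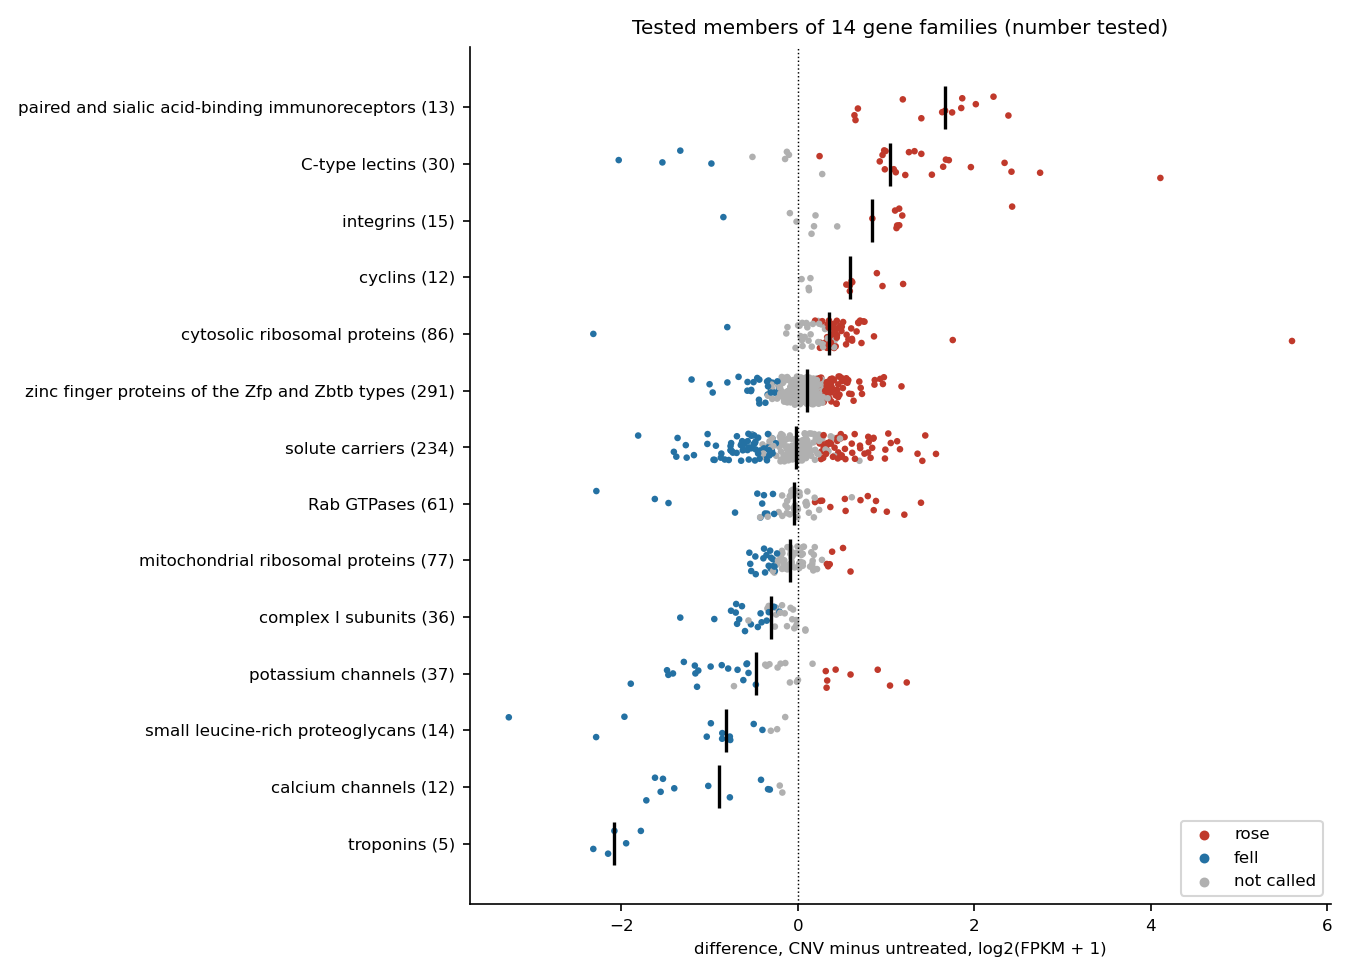
Difference of every tested member of 14 gene families, CNV minus untreated, on the log2(FPKM + 1) scale. Each dot is 1 gene, coloured by whether it rose, fell or was not called, and the short bar is the family median. Small leucine-rich proteoglycans show 11 falls and 0 rises, and the paired immunoreceptors 13 rises and no fall.

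Epithelial genes went both ways within families. Keratins, the filament proteins of epithelium, had 7 rises and 6 falls in 21 tested genes, and their median of -0.01 changed sign to 0.08 with library-total scaling and to 0.01 with quantile normalization. Krt14, a keratin of basal cells, was at 282, 316 and 286 FPKM in untreated and 1869, 2252 and 553 FPKM in CNV libraries (2.17, adjusted p = 0.00706), and the third CNV library stood well below the other 2. Its basal partner Krt5 fell instead, from 6367, 5510.4 and 5639.7 FPKM to 2902, 3032 and 3328 FPKM (-0.92, adjusted p = 0.000448). The difference between these paired keratins was thus of opposite sign, with no overlap of the groups in either. Krt19 of simple and wounded epithelium rose by 1.13.

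Genes of desmosomes, claudins and connexins fell more often than they rose, and those of the cornified envelope rose more often than they fell. Desmosomes rivet cells together through keratin, and 7 of 12 tested desmosome genes fell, with Dsg1a of upper layers at -1.42 and the linker Jup at -0.66. Dsg2, the desmoglein of simple epithelium, rose by 0.47, 1 of 2 rises (1 without library untreated 1, untreated 2, CNV 1 or CNV 2). Claudins, which seal tight junctions, had 5 falls (3 without library untreated 1, untreated 3 or CNV 1) and 0 rises (1 without library untreated 2 or CNV 2) in 11 tested genes, and connexins 4 falls and 1 rise (0 without library untreated 1 and 2 without library CNV 3) in 7. Of 6 tested cadherins 1 rose (2 without library untreated 3, CNV 2 or CNV 3) and 0 fell. Cornified envelope precursors, which build the outer shell of squamous cells, rose in 5 (3 without library CNV 2) and fell in 2 (1 with any 1 library left out) of 8 tested genes, 3 of them through 1 group, with a median of 1.32. Sprr1a, the most abundant of them, was at 21.9, 31.2 and 13.3 FPKM in untreated and 286, 229 and 75.4 FPKM in CNV libraries (2.97, adjusted p = 0.0312), and it was no longer called without library untreated 1, untreated 3, CNV 1 or CNV 2 (adjusted p of 0.0656 to 0.0983). Lce3a, a late envelope protein, fell from 83.5, 71.9 and 69.2 FPKM to 11.4, 6.02 and 10.7 FPKM (-2.91, adjusted p = 2.10e-05), with all CNV values below all untreated values. Muc1, a surface mucin, rose by 2.15. Of 6 corneal epithelium markers 5 fell and 1 rose, with sums of 16108 to 19018 FPKM and 7611 to 9190.3 FPKM. That list holds keratins counted above, Krt5 and Krt14 among them, and the part of its markers in the epithelial results was not tested.

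After the crystallins of the lens, contractile families had the lowest medians of the families surveyed. Troponins, the calcium switch of striated muscle, fell in 5 of 5 tested genes with a median of -2.08. Myosin heavy chains fell in 6 and rose in 1 of 9, and light chains fell in 11 and rose in 0 of 15. Muscle isoforms of otherwise general families fell with them: the ribosomal protein Rpl3l, a muscle form, from 46.7, 45.2 and 49.5 FPKM to 7.77, 6.9 and 12 FPKM (-2.31, adjusted p = 1.23e-05), and the glycolytic Eno3 and Pgam2 (-2.64 and -2.47). The same held for the muscle glucose transporter Slc2a4 (-1.81), the cytochrome oxidase subunit Cox6a2 (-1.69), the small heat shock protein Hspb7 (-3.06), the ubiquitin ligase Trim54 (-2.47), the Kelch protein Klhl41 (-2.50) and the calcium channel subunits Cacna1s and Cacnb1 (-1.62 and -1.71). All 10 skeletal muscle markers fell, with sums of 4984 to 5442 FPKM untreated and 816 to 1380.4 FPKM with CNV. Most of them are troponin or myosin chain genes already counted above, so the list is not separate from those families. Their part in the family results was not tested. Lens crystallins of the alpha, beta and gamma types fell in 13 of 16 tested genes, 3 of them tested through 1 group, and 8 crystallin genes fell without the first or the third CNV library. Lens markers summed to 460.4, 506 and 11445 FPKM in the 3 untreated libraries, the third far above the others, and to 14.1 to 90 FPKM in CNV libraries.

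The microtubule and motor families mixed falls of neuronal forms with rises of others. Of 15 tested tubulins 9 fell and 2 rose, with a median of -0.68. Tubb3, the neuronal beta tubulin, was at 45.6, 51.4 and 25.6 FPKM in untreated and 9.08, 8.33 and 8.58 FPKM in CNV libraries (-2.06, adjusted p = 7.68e-05), with the third untreated library below the other 2 and no overlap. Tubb6, a widely expressed beta tubulin, rose from 12.1, 13 and 12.8 FPKM to 54.7, 54.6 and 32.1 FPKM (1.78, adjusted p = 8.81e-05). Kinesins had 7 rises and 4 falls in 22 tested genes: the axonal motor Kif5a fell (-1.27) and the spindle motor Kif11 rose by 0.94. Intraflagellar transport and Bardet-Biedl genes, which serve the cilium and the photoreceptor outer segment, fell in 11 and rose in 2 (1 without library untreated 1, untreated 2, CNV 1 or CNV 2) of 23, with Bbs9 at -0.68 and Ift57 at 0.72.

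Potassium, sodium and calcium channel genes fell more often than they rose, and other channel families went both ways. Of 92 potassium channel genes and their interacting proteins 37 were tested (9 through 1 group), 18 fell and 8 rose (5 without library CNV 2). Sodium channel genes fell in 5 and rose in 1 of 6 (2 through 1 group). Voltage-gated calcium channel genes fell in 10 and rose in 0 of 12 (1 through 1 group), with a median of -0.89. Kcnip4, a partner of A-type potassium channels in neurons, fell by the most among the potassium group (-1.89, adjusted p = 2.16e-05). Kcnj15, an inward rectifier, rose by 1.23. TRP channels went against this pattern with 6 rises and 1 fall (2 without library untreated 1) in 14 tested genes, led by the magnesium channel Trpm6 (1.45). Chloride channels and anoctamins had 3 rises and 3 falls in 14 tested genes. Aquaporins, which pass water, fell in 3 and rose in 1 of 6. Aqp5, a water channel of cornea and glands, was at 1666, 1294 and 1439 FPKM in untreated and 452, 471 and 854 FPKM in CNV libraries (-1.36, adjusted p = 0.00109), and Aqp4 of glia was at 2.1, 2.67 and 2.38 FPKM and 27.2, 23.8 and 19.3 FPKM (2.84, adjusted p = 5.25e-06). The groups overlapped for neither.

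Receptors for inhibitory transmitters mostly fell. Of 9 tested GABA and glycine receptor genes (4 through 1 group) 6 fell, such as Glra2 (-1.15), and 1 rose. The riser was Gabrp, the pi subunit found mainly outside the nervous system, at 0.227, 0.267 and 0.349 FPKM in untreated and 6.4, 6.19 and 4.57 FPKM in CNV libraries (2.38, adjusted p = 1.54e-05). Gabrp had passed the filter through the CNV group only, so its groups could not overlap. All 3 tested glutamate receptor genes (1 through 1 group) fell, and the nicotinic subunit Chrna6 of ganglion cells fell as well (-2.34).

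Among genes of vesicle release, synaptotagmins mostly fell while SNARE proteins as a family did not shift. Synaptotagmins, the calcium sensors of vesicle fusion, and their relatives fell in 9 and rose in 0 of 12 tested genes (1 through 1 group). SNARE proteins, which fuse membranes in every cell, had 8 rises and 11 falls in 42. These shares of 19.0% and 26.2% were near the 22.9% and 22.7% of all tested genes, and the median was 0.01. Snap25, the neuronal form, was at 85.6, 82.9 and 58.3 FPKM in untreated and 13.5, 13.5 and 18.2 FPKM in CNV libraries (-2.24, adjusted p = 1.37e-05). Its widely expressed counterpart Snap23 rose by 0.64, as did Stx11 of immune cell granules (0.77). Rab GTPases showed 13 rises and 13 falls in 61, a balance whose median of -0.04 turned to 0.05 with library-total scaling. Rab3a of synaptic vesicles fell from 78.9, 79.9 and 45.1 FPKM to 10.9, 11.8 and 16.2 FPKM (-2.28, adjusted p = 5.23e-05), whereas Rab31 rose by 1.40.

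G protein genes fell more often than they rose. G protein subunits had 12 falls and 7 rises in 32 tested genes, with the neuronal gamma subunit Gng3 at -2.21 and the alpha subunit Gna13 at 0.53. Regulators of G protein signalling, which switch off the alpha subunits, fell in 7 and rose in 3 of 15 (4 through 1 group). Rgs4 of neurons was at 21.7, 22.8 and 13.9 FPKM in untreated and 1.37, 1.91 and 2.63 FPKM in CNV libraries (-2.78, adjusted p = 1.94e-05), while Rgs19 rose by 1.08. Phosphodiesterases, the enzymes that degrade cyclic nucleotides, a step that carries the light signal in photoreceptors, fell in 9 and rose in 3 of 15.

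Markers of ganglion cells and rods moved with the channel, release and relay genes. Of 7 tested ganglion cell markers 6 fell, with sums of 216 to 346 FPKM untreated and 71.4 to 94 FPKM with CNV. Of the 7, 3 had passed the filter through the untreated group only and so had to differ. Of 7 rod markers 6 fell and 0 rose, with sums of 1565 to 2165 FPKM untreated and 613 to 736 FPKM with CNV. Of 6 tested cone markers 2 fell, and the 7 of the list summed to 97 to 195 FPKM and 61.6 to 101 FPKM. Of 5 tested amacrine markers 3 fell, 3 of the 5 having passed through 1 group, and the 6 of the list summed to 14.1 to 25.9 FPKM and 9.26 to 9.98 FPKM. None of the 5 tested bipolar markers was called. Some of these markers are themselves counted among the phosphodiesterases, G protein subunits or homeobox genes, so the lists are not separate from those families. The part of these markers in the results on channels, cilium genes, phosphodiesterases and homeobox genes was not tested.

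**Figure D4:**
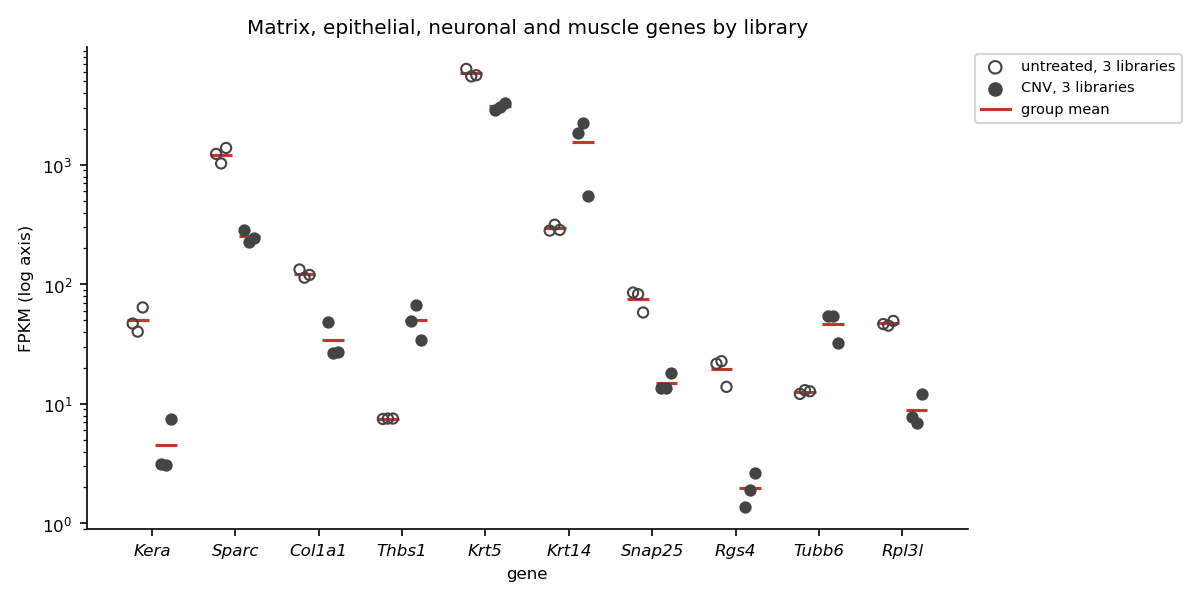
FPKM of 10 genes of matrix, epithelial, neuronal and muscle families in each of the 6 libraries, on a log axis, with open circles for untreated and filled circles for CNV libraries and a bar at each group's mean. Kera, Sparc, Col1a1, Krt5, Snap25, Rgs4 and Rpl3l sit lower in all 3 CNV libraries, and Thbs1, Krt14 and Tubb6 higher.

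Solute carriers, the transporters of small molecules, balanced out. Of 390 solute carriers 234 were tested, 54 rose and 62 fell, shares of 23.1% and 26.5% that are close to those of all tested genes, and the split turned to 62 and 54 with library-total scaling. The mitochondrial Slc25 carriers leaned down within this balance, with 15 falls and 5 rises in 39 tested genes. Slc25a4, the heart and muscle ADP/ATP carrier, was at 478, 489.8 and 477 FPKM in untreated and 259, 237 and 249 FPKM in CNV libraries (-0.95, adjusted p = 2.59e-05). Among rises were Slc11a1, the metal transporter of phagosomes (1.57), and Slc22a4, a carnitine and ergothioneine carrier (1.44). Proton pump subunits of the V-ATPase fell in 10 and rose in 3 of 20, with the neuronal Atp6v1g2 at -2.22 and Atp6v0d2, known from osteoclasts and macrophages, at 1.91.

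Among transcription factors, zinc finger genes seldom fell and homeobox genes of eye and brain often did. Zfp and Zbtb genes, the numerous zinc finger class, rose in 68 and fell in 26 of 291 tested genes. The rising share of 23.4% was near the 22.9% of all tested genes, and the falling share was 8.93%. The shifts were small, with a median of 0.10, and the counts became 57 and 26 with quantile normalization. Zfp52 rose by 1.18, and Zbtb16, the transcription factor PLZF, fell (-1.20). Homeobox genes of eye and brain fell in 14 and rose in 3 of 29 tested genes (6 through 1 group). Crx, the photoreceptor factor, was at 71.8, 62 and 47.1 FPKM in untreated and 30.7, 26 and 28.9 FPKM in CNV libraries (-1.04, adjusted p = 0.000624), with no overlap. The ganglion cell factors Pou4f1, Pou4f2 and Isl2 fell as well (-1.29, -1.20 and -1.22). Pou4f1 and Pou4f2 had passed the filter through the untreated group only and so had to differ.

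Factors of the AP-1, ETS and C/EBP families rose more often than they fell. AP-1 and ATF genes, early targets of stress kinases, rose in 12 and fell in 1 of 22. Atf3, induced by injury, was at 2.43, 2.54 and 1.58 FPKM in untreated and 9.56, 19 and 10.8 FPKM in CNV libraries (2.11, adjusted p = 0.000179), and all CNV values exceeded all untreated ones. ETS factors rose in 12 and fell in 3 of 20, with the myeloid factor Spi1, also called PU.1, up by 1.40 and the endothelial factor Erg down (-0.76). C/EBP factors rose in 4 of 5, but in 2 without library untreated 3, CNV 1 or CNV 2. Krüppel-like factors went both ways (6 rises, 5 falls in 15, falls 3 without library untreated 1, untreated 2, CNV 1 or CNV 2), with Klf9 and Klf15, both targets of glucocorticoid, lower (-1.01 and -0.94).

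Enzymes that methylate or demethylate histone lysines rose in 17 and fell in 2 of 40 tested genes (falls 1 without library untreated 1 and 4 without library untreated 3). The changes were small. Kdm7a, Kdm6b and Kmt2a rose by 0.56, 0.53 and 0.49, and Setd6 fell (-0.30).

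Among protein synthesis genes, those of the cytosolic ribosome rose more often than they fell. Of 90 cytosolic ribosomal protein genes 86 were tested, 54 rose and 2 fell, with a median of 0.35. Leaving out single libraries lowered that number (32 without library untreated 1 and 33 without library untreated 2 and 35 without library CNV 2). Leaving out members that the table lists as pseudogenes, 52 of 82 rose and 1 fell. Rps27, of the small subunit, was at 482, 483 and 622 FPKM in untreated and 892, 1035 and 949 FPKM in CNV libraries (0.86, adjusted p = 0.00282). All CNV values of Rps27 were above all untreated ones. The most abundant member, Rplp1 of the large subunit stalk, was at 4069.6, 3674 and 4546 FPKM and 5198, 5064 and 4781 FPKM and was not called.

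Mitochondrial ribosomal proteins fell in 19 and rose in 6 of 77 (24.7% and 7.79%, so falls were near the share of all tested genes), although library-total scaling gave 11 and 12 and turned the median from -0.08 to 0.01. Aminoacyl-tRNA synthetases, which load amino acids onto transfer RNA, fell in 12 of 36, with Aars at -0.57 and the mitochondrial Sars2 and Fars2 at -0.55 and -0.49. In that group 1 gene rose (0 without library untreated 1, untreated 2, untreated 3, CNV 1 or CNV 2 and 3 without library CNV 3). Translation initiation factors were close to all genes, with 7 rises, 9 falls and a median of -0.05 in 53 tested genes, which became 0.02 with library-total scaling. Chaperones of the DnaJ type fell in 14 and rose in 6 (3 without library CNV 1) of 39, while the ER chaperone Hspa5, also called BiP, rose by 0.82.

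Genes of cell division rose more often than they fell. Cyclins rose in 8 and fell in 0 of 12 tested genes, with a median of 0.59, and the mitotic Ccnb1 and Ccna2 rose by 1.19 and 0.90. MCM and replication origin genes, which license and start DNA replication, rose in 17 of 34 and fell in 0, with Gins2 up by 0.83. That number moved when single libraries were left out (7 without library untreated 2, CNV 1 or CNV 2 and 11 without library untreated 3). Centromere and spindle checkpoint genes rose in 16 and fell in 3 (1 without library untreated 1 or CNV 1) of 24, with Cenpa, the histone that marks centromeres, up by 1.44 (adjusted p = 0.000414) and Bub1 by 1.21.

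Genes of the respiratory chain, glycolysis and lipid synthesis fell more often than they rose. Subunits of complex I, the entry point of the respiratory chain, fell in 18 and rose in 0 of 36 (13 and 0 with library-total scaling), and subunits of the later complexes fell in 25 of 48. In the later complexes 0 rose (3 without library untreated 3). Glycolytic enzymes fell in 11 and rose in 1 (2 without library CNV 3) of 23. Aldoa, the widespread aldolase, was at 853, 820.5 and 708 FPKM in untreated and 329, 357 and 320.0 FPKM in CNV libraries (-1.24, adjusted p = 1.91e-05). Hk3, the hexokinase of leukocytes, was the riser (1.56). Sterol synthesis enzymes fell in 8 and rose in 1 of 21, and acyl-CoA enzymes, elongases and desaturases fell in 12 and rose in 3 (5 without library untreated 1) of 37. Cytochromes P450 had 6 rises and 4 falls in 21 tested genes, and phospholipases A2 2 and 2 in 10. UDP-glucuronosyltransferases and sulfotransferases had 2 rises (1 without library untreated 3 or CNV 1) and 2 falls in 5.

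Detoxifying families showed opposite moves of abundant members. Glutathione transferases and peroxidases fell in 11 (6 without library untreated 1, untreated 3 or CNV 1 and 7 without library CNV 2) and rose in 7 of 28. Gpx3, the secreted peroxidase, was at 132, 121 and 113 FPKM in untreated and 366, 345 and 430.0 FPKM in CNV libraries (1.63, adjusted p = 1.06e-05), and the groups did not overlap. Gsta4, which clears lipid aldehydes, fell (-0.90). IGF-binding proteins were split evenly, 3 up and 3 down of 9, with Igfbp3 up by 2.21 and Igfbp2 down (-1.94). Among BMPs, activins and their antagonists 10 rose and 2 fell (1 without library untreated 1, untreated 3, CNV 2 or CNV 3) of 31, led by the BMP antagonist Grem1 (3.10), while Wnt ligands, receptors and secreted inhibitors fell in 9 and rose in 2 (4 without library CNV 3) of 29.

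Several families stayed near the median of all genes. Fam genes, named only by sequence relation, had 27 rises and 27 falls in 128, and annexins 3 and 3 in 11. Tmem genes, a label for membrane proteins without a family of their own, had 28 rises and 45 falls in 175, turning to 40 and 29 with library-total scaling. Proteasome genes had 10 falls and 4 rises in 46 (21.7% and 8.7%), which became 7 and 8 under that scaling. With the deposited scaling the rises were 1 without library untreated 2 or CNV 2 and 2 without library untreated 1 or CNV 1. Of 1107 olfactory receptor genes 1040 were at 0 in all 6 libraries and none was tested, and none of 40 Hox genes was tested.

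By biotype, protein-coding genes divided evenly and pseudogenes did not. Protein-coding genes had 2919 rises and 2946 falls in 12285 tested genes. Long non-coding genes had 80 rises and 91 falls in 500 of 9680, and this turned to 98 and 70 with library-total scaling. Since the library kit does not mark strand, reads of 160 tested antisense genes (23 higher, 34 lower) cannot be told apart from those of their partners. Pseudogenes rose in 123 (16.7%) and fell in 56 (7.6%) of 737 tested genes, both below the shares of all tested genes.

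Among processed pseudogenes, copies of ribosomal protein genes rose at about the share of all tested genes and seldom fell. Processed pseudogenes are retrocopies of messenger RNA, often near-identical to their parents, so reads can be split between parent and copy and single values are uncertain. Copies described as ribosomal protein genes rose in 26 and fell in 2 of 102 tested genes (25.5% and 1.96%, against 22.9% and 22.7% of all tested genes), and other processed pseudogenes rose in 73 and fell in 47 of 556. The difference between these 2 groups was not tested. The ribosomal copies summed to 5239, 4376 and 5412 FPKM in the untreated and 6906, 7312 and 6902 FPKM in the CNV libraries, so the groups did not overlap. Without the transcribed ones, the 621 tested processed pseudogenes had 89 rises (57 without library CNV 2) and 46 falls (28 without library untreated 1). Mitochondrial protein genes had 1 fall (2 without library CNV 1) and 0 rises in 13: mt-Nd3, a complex I subunit, was at 69.1, 72.7 and 99.9 FPKM in untreated and 29.4, 27 and 28 FPKM in CNV libraries (-1.46, adjusted p = 0.000329).

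Host genes of well-known microRNAs were measured, and they were picked out after their values were seen. MicroRNAs pair with target messages through the seed, bases 2 to 8 of the mature strand, and the mature strands themselves were not measured here. Of 10 genes named as microRNA hosts 6 were tested (2 through 1 group), 1 rose and 4 fell. Mir142hg, host of a microRNA of blood cells, was at 0, 0 and 0.691 FPKM in untreated and 2.81, 1.91 and 2.19 FPKM in CNV libraries (1.46, adjusted p = 0.000669). It had passed the filter through the CNV group only and so had to differ. Its CNV values rest on 15, 9 and 11 reads. Mir124-2hg, host of the neuronal miR-124, went from 21.2, 21.8 and 27.1 FPKM to 4.28, 3.6 and 4.31 FPKM (-2.26, adjusted p = 6.44e-06), and Mir22hg from 15, 16 and 18.2 FPKM to 11.3, 10 and 11 FPKM (-0.56, adjusted p = 0.000536). RefSeq for GRCm38.p6 held the microRNA of 3 of the 6 tested hosts under the host's symbol. The strands of 2 of these are given here, 1 whose host rose and 1 whose host fell, with the seed in capitals, each 5′ to 3′.
mmu-miR-142a-3p: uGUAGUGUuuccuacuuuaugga
mmu-miR-142a-5p: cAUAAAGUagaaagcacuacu
mmu-miR-22-3p: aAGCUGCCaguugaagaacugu
mmu-miR-22-5p: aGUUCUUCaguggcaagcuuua
On chromosome 11 (GRCm38.p6, plus strand) the 5p strand of miR-142a lies at chr11:87756867-87756887 and its 3p strand at chr11:87756903-87756925, the 5p strand of miR-22 at chr11:75463734-75463755 and its 3p strand at chr11:75463772-75463793, and the 4 seeds differ from each other.

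Length and level of a gene went along with direction. When tested protein-coding genes were put in quintiles by the deposited gene length, the shortest quintile (204 to 2286 bases) had 510 rises and 719 falls, and the longest (7077 to 41155 bases) had 763 rises and 380 falls. The medians of the 5 quintiles were -0.07, -0.08, -0.01, 0.04 and 0.10 from shortest to longest. With library-total scaling the shortest quintile turned to 627 rises and 589 falls, and the longest had 938 and 268, so the order of the end quintiles kept its sense while the balance within the shortest did not. By mean level, the lowest quintile of tested genes had 654 rises and 458 falls and the highest quintile 535 and 822. The tested Zfp and Zbtb genes had a median length of 4550 bases and a median level of 2.7 FPKM, complex I subunits 1532 bases and 78.3 FPKM, and all tested genes 3784 bases and 5.65 FPKM, and the part of length and level in the family results was not tested. Among chromosomes, 13 had the highest rising share, with 156 rises and 89 falls in 515 tested genes (30.3% and 17.3%). Chromosome 7 had the highest falling share, with 191 rises and 285 falls in 1004 (19.0% and 28.4%). Both were picked after their values were seen, and the shares of all tested genes were 22.9% and 22.7%.

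**Figure D5:**
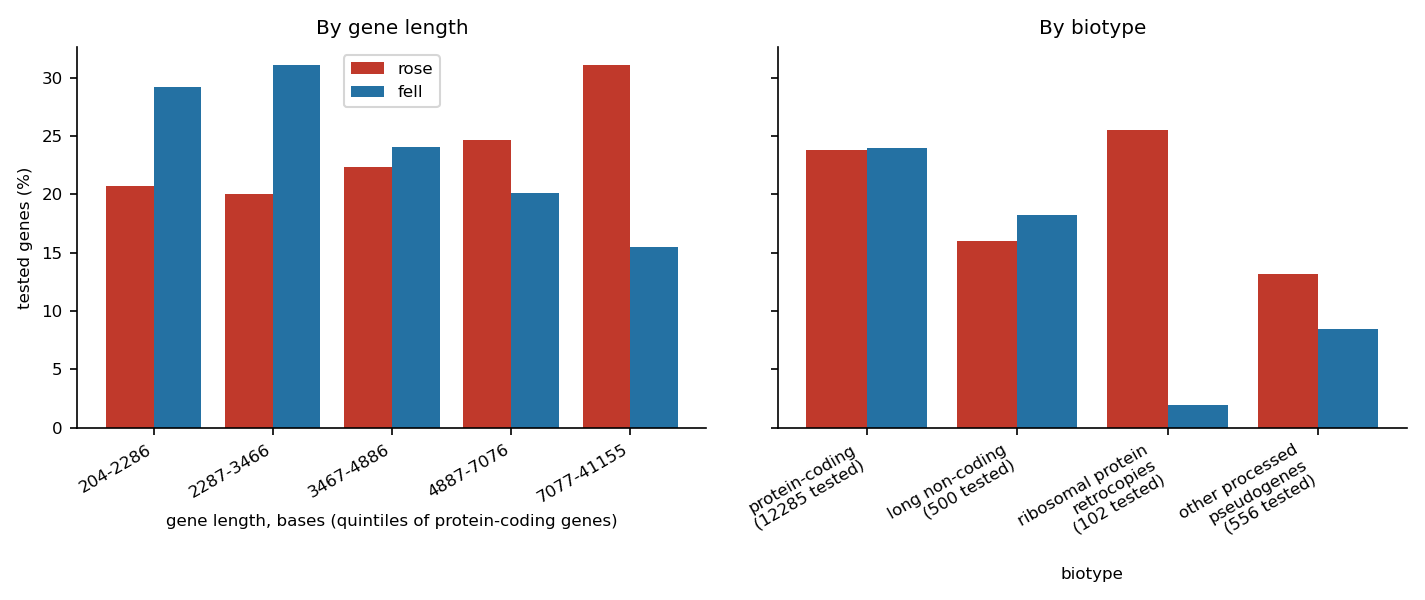
Share of tested genes that rose and fell, in percent, by quintile of gene length for protein-coding genes (left) and by biotype (right). In the shortest quintile 20.7% rose and 29.2% fell, and in the longest 31.1% rose and 15.5% fell.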

How the data were processed

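RNA of 9 eye libraries was analysed, 6 of them in the comparison. Per the labels' protocols, RNA was extracted with Trizol, selected on poly-T beads and made into libraries with a NEBNext Ultra kit, which does not mark strand. The authors deposited FPKM per gene; per the submitters' processing notes, reads were counted with HTSeq 0.6.0 on mm10. The aligner was not given in the sources used here. FPKM times gene length gave whole reads for 100% of values within 0.05, which gave the read totals.

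Genes reaching 1 FPKM in 3 or more of the 6 libraries were fitted as log2(FPKM + 1) with limma 3.58.1 (R 4.3.3, statmod 1.5.0), 1 mean per group over all 9 libraries, trend and robust options, two-sided p-values and Benjamini-Hochberg adjustment over all tested genes. Families were defined by gene symbol; counts and medians describe them and carry no test of their own. The smallest p an exact test of 3 against 3 libraries allows is 0.10, so summed marker levels were not tested. The members, families and marker lists were chosen with earlier results of these data known. Genes named were those with the 15 largest rises and falls, up to 3 rises and 3 falls without overlap and the most abundant member of each family, and the markers, so far as the text uses them. Alternatives were another pseudocount, other filters, scaling to library totals, quantile normalization, a fit of 2 groups, no trend, the replicate number as a block, limma voom on recovered reads and each library left out. The simulated data held 13658 genes, with 100 changed by 1 and 100 by 0.5 on the log2 scale. The test recovered 92% of the changes of 1 and 54% of those of 0.5, and 8.18% of its calls were unchanged genes. Some genes, and results that rest on them, are not reported here. Floors of 3 reads cover counting error only.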

Additional observations from a re-analysis of the deposited data

How the results depend on the processing

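Over 15 alternatives, 141 of the 142 named genes called here kept the call wherever they were tested and none changed sign. Sprr1a lost its call with the replicate block (adjusted p = 0.0751) and with each of 4 libraries left out. Rplp1, not called, was called under 5 of the alternatives. Most named genes were picked for large differences without overlap, so their stability does not describe calls at large. Of all 6237 called genes, 5044 to 5637 kept their call with 1 library left out and 5600 in the fit of 2 groups. The number of rising genes was 1674 and of rises of at least 1 was 262 with a filter of 5 FPKM, which tests 7588 genes. Rises of at least 1 numbered 824 with a pseudocount of 0.1, and limma voom gave 861 such rises and 921 such falls, as neither damps weakly expressed genes as the added 1 FPKM does. Leaving out 1 library at a time gave 2585 to 3110 rises, 2530 to 3054 falls, 466 to 643 rises of at least 1 and 550 to 663 falls of at least 1. Same-numbered libraries of the groups did not deviate together (correlations -0.0951, 0.0634 and 0.00947). With 3 libraries per group such correlations cannot exclude a pairing, and what the numbers mark is not stated. In the fit with the replicate block 2997 genes rose and 3026 fell, and 536 and 598 did so by at least 1. Library-total scaling moved 30 of 87 family and biotype medians by at least 1 SD between libraries, and quantile normalization moved 8. Without a filter 33 moved, with the 5 FPKM filter 27 of 84, with limma voom 19 and with the other pseudocount 17. The block moved 0, which was fixed in advance: each group holds every replicate number once, so the block cannot change a difference. Counts differed by over 1.5 times in 25 of 174 family counts with library-total scaling, in 75 of 168 with the 5 FPKM filter and in 2 with limma voom. How often changes of 0.5 or less were missed in these data was not measured. The simulation held 100 changed genes of each size among 13658, far fewer than the 6237 genes called here.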

Other observations

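Some loci with clear differences were outside the families above or stood apart within them. They were chosen after their values were seen, and the values of the 3 libraries titled Betp-Gel@Ran are set beside them as values only. Ifnl2 and Ifnl3, which encode interferon lambda, the interferon of epithelial surfaces, were detected in untreated libraries alone of the 2 groups. Ifnl2 was at 5.62, 3.37 and 4.24 FPKM in the untreated libraries and at 0 in the 3 CNV libraries, at least 18.1-fold lower against a floor of 3 reads per library, and at 0 in the 3 gel libraries. Ifnl3 was at 7.29, 4.16 and 4.26 FPKM untreated and at 0 with CNV, at least 17.8-fold lower, and at 0.0981, 0 and 0 FPKM in the gel libraries. Pglyrp4, a secreted protein that binds bacterial peptidoglycan, was at 14.5 to 16.3 FPKM untreated, 0.618 to 0.883 FPKM with CNV and 0.398 to 0.646 FPKM in the gel libraries.

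Some genes were seen in CNV libraries and nearly absent from both other groups. Anxa10, an annexin of gastric epithelium, was at 0 in the 3 untreated libraries and at 6.63, 5.20 and 4.23 FPKM in the CNV libraries, at least 66.0-fold higher, and at 0 to 0.0747 FPKM in the gel libraries. Il24, a cytokine of the interleukin 10 family, was at 0 untreated and at 1.97, 2.06 and 3.17 FPKM with CNV, at least 17.9-fold higher, and at 0 in the gel libraries. Prl2c2, which encodes proliferin, a growth factor that acts on vessels, was at 0 untreated, at 2.55, 2.72 and 1.43 FPKM with CNV and at 0 in the gel libraries. Near-identical copies of Prl2c2 exist, so its reads are uncertain.

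A few loci shifted in all CNV libraries by nearly the same amount. Rps3a2, a retrocopy of a ribosomal protein gene, was at 8.96 to 10.3 FPKM untreated, 504.1 to 525 FPKM with CNV and 425 to 454 FPKM in the gel libraries, while its parent Rps3a1 was at 1490.3 to 1702 FPKM, 1396 to 1516 FPKM and 1252 to 1304 FPKM. Tpm3-rs7, a copy of a tropomyosin gene, was at 15.6 to 17.1, 97.6 to 109.8 and 97.9 to 108.6 FPKM in the same order of groups. Wdfy1, an endosomal adaptor, was at 1.15 to 1.32, 5.45 to 6.03 and 5.0 to 5.40 FPKM. Gm28438, a pseudogene on chromosome 1, was at 19.5 to 25.1, 146 to 179.8 and 153 to 224 FPKM. Reads can be split between a copy and its parent, so these values are uncertain for the copies. On the mitochondrial genome the transfer RNA gene mt-Tg (MT:9391-9458 in the deposited table, mm10) was at 13.9, 13.2 and 21.9 FPKM untreated and at 0 in the CNV and gel libraries, and its neighbour mt-Nd3 (MT:9459-9806) was at 69.1 to 99.9, 27.0 to 29.4 and 21.6 to 38.2 FPKM.

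The X chromosome between 136000000 and 138000000 holds a cluster of Bex and Tceal genes, small proteins found mainly in neurons. Of 69 genes in that interval 16 were tested, 12 fell and 0 rose, with a median of -1.22. Bex2 was at 78.6, 69.3 and 48.2 FPKM untreated and 21.6, 14.5 and 19.2 FPKM with CNV, and Tceal5 at 17.6, 18.1 and 12.5 FPKM and 2.72, 4.06 and 4.25 FPKM. In both genes all CNV values were below all untreated values. Most ganglion cell markers fell in the same comparison, and their part in this interval was not tested.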
